A study of Mus musculus with 24 samples.

Results

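The comparison described here is that of γ-oryzanol-encapsulated nanoparticles (Nano-Orz) with their water vehicle (Nano-Veh) in mouse liver. It rests on 6 of the 24 arrays of the series, the 3 liver arrays of each group, chosen by tissue, preparation and treatment from the sample labels. All mice were male ob/ob mice, which lack leptin, eat in excess and become obese and diabetic with a fatty liver, so the vehicle mice carry this mutation too. They had free access to food, and the sample titles name no diet. Dosing ran over 4 weeks up to 9 weeks of age. γ-Oryzanol is a mixture of ferulic acid esters of plant sterols from rice bran, and in Nano-Orz it is carried in particles of poly(lactic-co-glycolic acid), a biodegradable polymer, which were given into the stomach. Nano-Veh mice received water and no empty particles, so effects of the particle and of its cargo cannot be told apart. The 3 mice of a group were picked as representative of it, and the dose given to the mice behind these arrays is not given in the sources used here.

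The liver stores surplus energy as glycogen and as triglyceride in lipid droplets, makes fatty acids from glucose under the control of insulin and of the glucose-sensing factor ChREBP, and secretes most plasma proteins. Many of its P450, sulfotransferase and urinary protein genes differ between male and female mice, because the pattern of growth hormone secretion differs between the sexes. Immediate early genes are the transcription factors, kinases and phosphatases that cells switch on within minutes of a stimulus. Signals of an array of whole liver come from all cell types together, so fewer cells of a type and less RNA per cell cannot be told apart.

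The values are log2 signals made by the distribution free weighted method (DFW) for 45101 probe sets, which stand for 18194 genes with a probe set of their own. A gene is given by its brightest such probe set. Signals ran from 5.26 to 14.7, and the 6 arrays lay very close together, with a median within-group SD of 2.73e-06 and 99.1% of probe sets spanning under 0.001. Differences are given as Nano-Orz minus Nano-Veh in log2 DFW units with the standard error from limma, and they are not fold changes. A gene was called higher or lower by rank product, which multiplies the ranks of its difference over the 9 treated and vehicle pairs of arrays. A few extreme pairs can therefore suffice. Called are those with an estimated proportion of false positives (pfp) under 0.05 over all probe sets. By this rule 134 probe sets (0.297%) were called higher and 79 (0.175%) lower, which for genes were 55 higher (0.302%) and 45 lower (0.247%). These shares of all genes belong beside the counts of called genes in each list below. The gene lists were chosen with earlier results of these data known. A list count above these shares is therefore no independent evidence that the list changed. The shares also do not allow for the spread of the genes in a list. After adjustment limma called 0 probe sets. Before adjustment 1959 had a p under 0.05, against 2255 that a test without any true difference gives on average, and 22 of the called genes had such a p at the probe set that stands for them. An exact permutation test of 3 against 3 arrays cannot give a two-sided p below 0.1.

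Most calls were made among the most variable probe sets: 146 of the 213 called probe sets (68.5%) were among the 452 of widest spread. The pfp is estimated by shuffling values among the probe sets of each array. Such shuffling does not keep the spread of each probe set, so the true share of false calls is not known. The vehicle array Nano-Veh 3 stood apart from the rest, being the highest or the lowest of the 6 arrays in 152 called probe sets (71.4%), against 12.2% to 40.4% for each of the other arrays. Over all genes Nano-Veh 3 was the highest in 21.8% and the lowest in 20.2%. All 6 control probe sets for thr, a bacterial transcript added to the RNA as a spike-in, were called higher without overlap, by 0.000264 to 0.000784, and 2 of 3 probe sets for 18S ribosomal RNA were called higher as well. No other control probe set was called, and those for dap, another spike-in, differed by -0.000284 to -4.74e-05. Of the called genes, 24 higher and 24 lower differed by no more than the largest thr difference, and 31 and 21 by more. The part of thr, of 18S and of Nano-Veh 3 in the calls was not tested. For genes given with their difference the value without Nano-Veh 3 follows where it moves by more than 1.5 times at the brightest probe set. No pair of arrays held the same values.

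**Figure D1:**
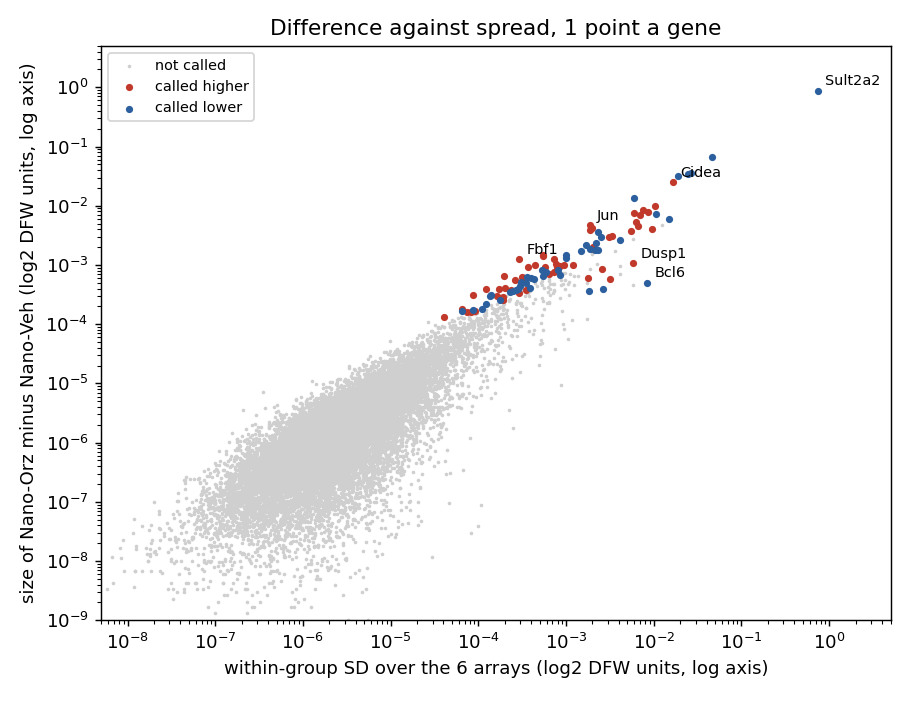
Size of the difference between Nano-Orz and Nano-Veh (vertical) against the within-group SD (horizontal), both in log2 DFW units on log axes, with 1 point for each gene. The 55 genes called higher and the 45 called lower lie at the upper right, where the spread is wide, with Sult2a2 at a difference of -0.874 farthest out.

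Of the 100 called genes, 15 were called whichever of the 6 arrays was left out. These were Cidea, Ppp1r3g, Jun, Gpcpd1, Phlda1, Plk3, Txnip, Hhex and Fbf1 among the higher genes and Sult2a2, Cyp2b13, Hao2, Hamp2, Scd2 and Ighm among the lower. After quantile normalization 14 of the 15 were called, the exception being Txnip. Each leave-out shuffles values in the same way, so it does not address the lean of the calls towards wide spread. In 22 of the genes called higher and 12 of those called lower, all Nano-Orz arrays lay on 1 side of all Nano-Veh arrays, which held for 9.11% of all genes. Calls and overlap come from the same differences, so nothing is read from the larger share among called genes.

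**Figure D2:**
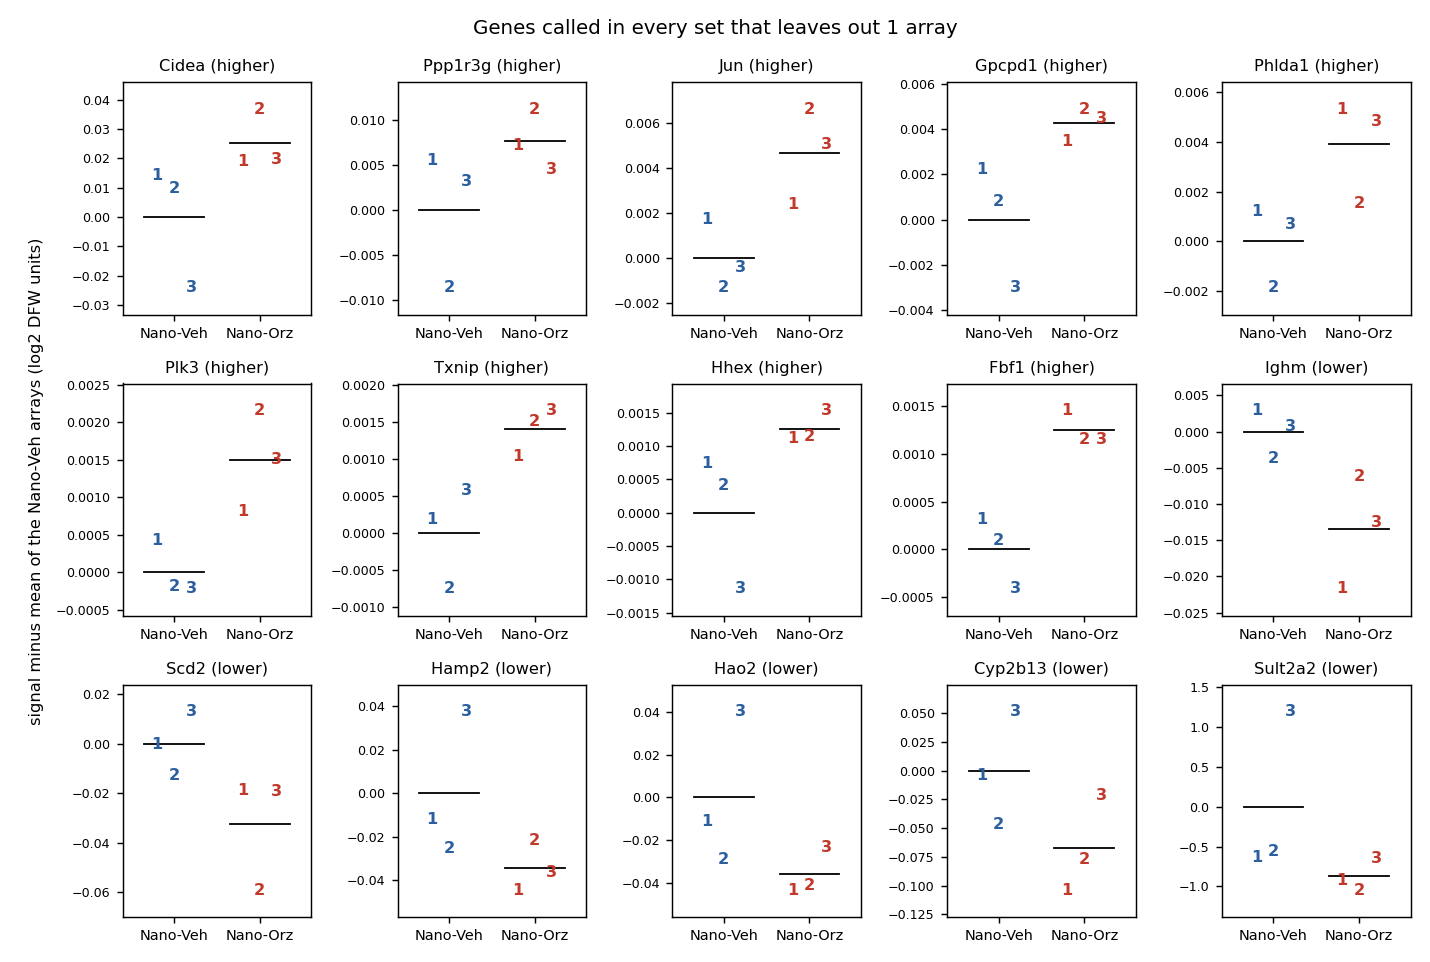
Signal of each array minus the mean of the Nano-Veh arrays, in log2 DFW units, for the 15 genes called in every set that leaves out 1 array; digits are the replicate numbers and bars the group means. Nano-Veh 3 (blue 3) lies far from the other vehicle arrays for Cidea, Hamp2, Hao2 and Sult2a2, while for Jun, Plk3, Txnip and Fbf1 the groups are separate without it.

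Some genes of lipid droplets rose with Nano-Orz. Of 25 measured genes of triglyceride storage and lipolysis, 3 were called higher and none lower by rank product, against 0.302% and 0.247% of all genes. A positive difference was seen in 19 (48.7% of all genes had one). The median difference was 6.33e-06 against -2.8e-08 over all genes. The largest rise of any called gene was that of Cidea, which encodes a protein of the lipid droplet surface that helps droplets fuse and grow and which accumulates in fatty liver. Cidea read 8.98044, 8.99832 and 8.98114 in Nano-Orz 1 to 3 and 8.97583, 8.97146 and 8.93750 in Nano-Veh 1 to 3. All treated arrays lay above all vehicle arrays, with Nano-Veh 3 the lowest by a wide margin. The difference was 0.0250 (SE 0.0124), and 0.0130 without Nano-Veh 3. Cidec, the fat-specific relative of Cidea in the same protein family, rose by 0.000402 (SE 0.000152), but its call ended without any 1 Nano-Orz array, Nano-Veh 2 or Nano-Veh 3, and the difference was 0.000111 after quantile normalization. Cidec is also the 1 gene called, higher, among 10 adipocyte markers, of which 7 had a positive difference and whose summed signal was 84.7120 to 84.7125 with Nano-Orz and 84.7115 to 84.7120 with Nano-Veh; the part of adipocyte RNA was not tested. G0s2 encodes an inhibitor of the triglyceride lipase ATGL. It differed by 0.00454 (SE 0.00502) with overlapping arrays, at 9.67131, 9.67060 and 9.67889 against 9.66177, 9.66743 and 9.67798. Its difference was 0.00189 without Nano-Orz 3, where the call ended, 0.000893 without Nano-Veh 1 and 0.00899 without Nano-Veh 3. The list held 2 higher calls without Nano-Veh 3 and between 1 and 3 without any 1 array.

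Genes of fatty acid synthesis mostly lay lower. Of 20 measured genes, 3 were called lower and 1 higher, against 0.247% and 0.302% of all genes. Only 6 had a positive difference (48.7% of all genes did), and the median was -1.17e-05. Scd2, a desaturase that makes monounsaturated fatty acids, read 8.01741, 7.97701 and 8.01678 with Nano-Orz and 8.03565, 8.02337 and 8.04912 with Nano-Veh. No treated array reached the lowest vehicle array, and Nano-Orz 2 was the lowest of all. The difference was -0.0323 (SE 0.0141), and -0.0190 without Nano-Orz 2. Of the 3 probe sets for Scd2 this was the 1 called, and the mean over all 3 was -0.0109. Scd1, the main desaturase of the liver, chosen here after its value was seen, differed by -3.3e-09.

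Pnpla3, a lipid droplet acyltransferase and hydrolase whose transcription follows insulin and ChREBP, read 6.63319, 6.63321 and 6.63381 with Nano-Orz and 6.63467, 6.63332 and 6.63921 with Nano-Veh. The groups overlapped narrowly, and Nano-Veh 3 was the highest. Its difference of -0.00233 (SE 0.00166) became -0.000588 without Nano-Veh 3 and -0.00353 without Nano-Veh 2, and the call ended without Nano-Veh 1 or Nano-Veh 3. Mlxipl, which encodes ChREBP itself, fell, at -0.000260 (SE 0.000134), -0.000167 without Nano-Veh 3 and -0.000164 without Nano-Orz 3, with its call ending without Nano-Orz 3 or any 1 Nano-Veh array. Elovl3, an elongase of very long fatty acids that male liver expresses more, was the 1 gene of the list called higher, by 0.00205 (SE 0.00153), 0.00107 without Nano-Orz 2 and 0.000790 without Nano-Veh 3, and its call ended without any 1 Nano-Orz array or Nano-Veh 3. Nano-Veh 3 was the highest of the 6 arrays in 13 of the 20 genes of this list, and without it 1 gene was called lower. Chosen after its values were seen, Angptl8, a secreted inhibitor of lipoprotein lipase that insulin induces, was called lower by -0.00185 (SE 0.00140), which became -0.000383 without Nano-Veh 3, and its call ended without Nano-Veh 1 or Nano-Veh 3.

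Of 28 genes of fatty acid oxidation 1 was called higher and 2 lower, against 0.302% and 0.247% of all genes. As a list they barely moved, with 17 positive differences and a median of 4.62e-07. All 3 called genes had overlapping arrays. Cyp4a12a was the 1 called higher, and its call ended without any 1 array other than Nano-Veh 1. Hao2, a peroxisomal oxidase of hydroxy fatty acids, fell. Its signals were 7.05768, 7.05978 and 7.07766 with Nano-Orz and 7.08970, 7.07225 and 7.14157 with Nano-Veh. Nano-Orz 3 lay above Nano-Veh 2, so the groups overlapped, and Nano-Veh 3 was far above the rest. The difference of -0.0361 (SE 0.0201) became -0.0159 without Nano-Veh 3. None of 24 genes of cholesterol synthesis, uptake and efflux and none of 18 lipoprotein genes was called by rank product, with 8 and 9 positive differences. Of 25 bile acid genes, only the export pump Abcc4 was called, lower by -0.000364 (SE 0.000185), or -0.000195 without Nano-Veh 3, and that call ended without Nano-Orz 1 or any 1 Nano-Veh array.

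Subunits that direct protein phosphatase 1 to glycogen, where it activates glycogen synthase, moved in opposite directions. Ppp1r3g, which the fasting liver expresses, read 6.68481, 6.68884 and 6.68206 with Nano-Orz and 6.68313, 6.66894 and 6.68076 with Nano-Veh. Nano-Orz 3 lay just below Nano-Veh 1, so the groups overlapped. The difference was 0.00762 (SE 0.00444), and 0.00329 without Nano-Veh 2, the lowest array. Ppp1r3b, the main hepatic subunit, read 10.19303, 10.19394 and 10.19269 against 10.19360, 10.19436 and 10.19605. Its difference was -0.00145 (SE 0.000753), and -0.000759 without Nano-Veh 3, with the call ending without Nano-Veh 2 or Nano-Veh 3. Ppp1r3c differed by -0.00294 (SE 0.00188), and by -0.00125 without Nano-Veh 3, the array without which its call ended. These were the 3 called genes among 24 of gluconeogenesis, glycolysis and glycogen.

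Of 21 genes that answer to insulin or glucose, 3 were called higher and none lower, against 0.302% and 0.247% of all genes. Positive differences numbered 16 (48.7% of all genes had one), and the median was 1.05e-05. Txnip encodes the thioredoxin-interacting protein, which restrains glucose uptake and is a classic target of ChREBP. Its signals were 9.35961, 9.36009 and 9.36024 with Nano-Orz and 9.35876, 9.35782 and 9.35916 with Nano-Veh. The groups did not overlap, and the difference was 0.00140 (SE 0.000406), with a highest pfp of 0.0412 over the 6 sets that leave out 1 array. After quantile normalization the difference was 0.000584 and the call ended (pfp 0.0615). Its other probe set, at 8.24050, 8.24099 and 8.24199 against 8.23968, 8.23950 and 8.23990, was called higher as well. Igfbp2, a circulating binding protein of insulin-like growth factors that insulin lowers, rose by 0.000620 (SE 0.000235), at 8.08410, 8.08358 and 8.08347 against 8.08323, 8.08329 and 8.08277. Klf10, a transcription factor that responds to glucose, rose by 0.000602 (SE 0.000251). The calls of Igfbp2 and Klf10 ended without any 1 Nano-Orz array. Without any 1 array the list held 1 to 6 higher calls, and it held 4 without Nano-Veh 3. After quantile normalization none of its genes was called by rank product.

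The promoters of Txnip and Jun are shown because both genes were called at each of their 2 probe sets and whichever array was left out. The sequences are RefSeq's on GRCm38.p6 and run from 250 bases before to 50 bases after the start of the gene, 5′ to 3′ in the direction of transcription. Txnip lies at chr3:96557707-96558006 on the + strand and Jun at chr4:95052173-95052472 on the - strand. Capitals mark matches, on either strand, to CCAAT, to the carbohydrate response element form CACGNG followed by any 5 bases and CNCGNG, and to the AP-1 related forms TGACATCA and TTACCTCA.
Txnip: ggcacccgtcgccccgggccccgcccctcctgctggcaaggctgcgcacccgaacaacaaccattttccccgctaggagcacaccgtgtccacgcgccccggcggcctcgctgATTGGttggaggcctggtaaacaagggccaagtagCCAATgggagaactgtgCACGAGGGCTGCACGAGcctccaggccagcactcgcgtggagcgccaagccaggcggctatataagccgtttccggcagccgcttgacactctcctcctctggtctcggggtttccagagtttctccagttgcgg
Jun: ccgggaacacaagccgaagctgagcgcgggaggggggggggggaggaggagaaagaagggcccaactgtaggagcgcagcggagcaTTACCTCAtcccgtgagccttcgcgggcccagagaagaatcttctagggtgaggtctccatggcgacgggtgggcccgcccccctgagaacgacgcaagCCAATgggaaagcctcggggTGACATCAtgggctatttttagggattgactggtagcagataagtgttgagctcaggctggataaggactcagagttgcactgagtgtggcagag
In the Txnip promoter the carbohydrate response element form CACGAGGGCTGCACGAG begins 85 bases before the start, just after CCAAT at 102, with another CCAAT match on the opposite strand at 137. In the Jun promoter TTACCTCA begins 164, CCAAT 65 and TGACATCA 45 bases before the start. Of all 32851 promoters in the table, 37.4% hold CCAAT, 0.365% the carbohydrate response element form, 3.62% TGACATCA and 0.889% TTACCTCA. Of the 14453 genes measured here that have a promoter in the table, 42% hold CCAAT, 0.678% the carbohydrate response element form, 2.89% TGACATCA and 0.899% TTACCTCA. Of the 41 such genes called higher, 22 hold CCAAT, 1 (Txnip) the carbohydrate response element form, 1 (Jun) TGACATCA and 2 (Jun and Mup3) TTACCTCA. Of the 34 called lower, 19 hold CCAAT and 1 (Sprr1a) TGACATCA, and none holds either of the other forms. A match describes the letters and is not a measured site.

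Several immediate early genes were called higher by rank product. Of 32 measured, 5 were called higher and none lower, against 0.302% and 0.247% of all genes. A positive difference was seen in 25 (48.7% of all genes had one), and the median was 7.04e-06. Jun, which forms the AP-1 transcription factor with Fos proteins, read 9.05522, 9.05945 and 9.05789 with Nano-Orz and 9.05455, 9.05154 and 9.05245 with Nano-Veh. The lowest treated array lay just above the highest vehicle array. The difference was 0.00468 (SE 0.00141), and 0.00448 without Nano-Veh 3. Its dimmer probe set separated the groups as well, at 8.08039, 8.08114 and 8.08085 against 8.08006, 8.07965 and 8.07922.

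Phlda1, a pleckstrin homology-like protein that stress and growth signals induce, read 8.65747, 8.65368 and 8.65699 with Nano-Orz and 8.65335, 8.65028 and 8.65282 with Nano-Veh, a difference of 0.00390 (SE 0.00141). Plk3, a polo-like kinase of the stress response, read 8.10591, 8.10726 and 8.10661 against 8.10552, 8.10491 and 8.10488, a difference of 0.00149 (SE 0.000407). In both genes all treated arrays were above all vehicle arrays. The other called members of the list overlapped widely. Egr1, a zinc finger transcription factor, read 7.77120, 7.78551 and 7.77567 against 7.78120, 7.77827 and 7.76055, and its difference of 0.00412 (SE 0.00712) turned to -0.00227 without Nano-Veh 3 and shrank to 9.59e-05 without Nano-Orz 2. It was 0.00725, 0.00805 and 0.00659 without Nano-Orz 1, Nano-Veh 1 and Nano-Veh 2, and the call ended without any 1 Nano-Orz array or Nano-Veh 3. Dusp1, a phosphatase of MAP kinases chosen here after its values were seen, read 9.09802, 9.10161 and 9.10066 against 9.09445, 9.09432 and 9.10831. Its difference of 0.00107 (SE 0.00440) turned to -0.00122 and -0.00128 without Nano-Veh 1 and Nano-Veh 2 and was 0.00571 without Nano-Veh 3, 0.00211 without Nano-Orz 1 and 0.000314 without Nano-Orz 2. The call of Dusp1 ended without any 1 array other than Nano-Veh 3. Without Nano-Veh 3 the list held 7 higher calls, and it held 3 to 7 without any 1 array.

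**Figure D3:**
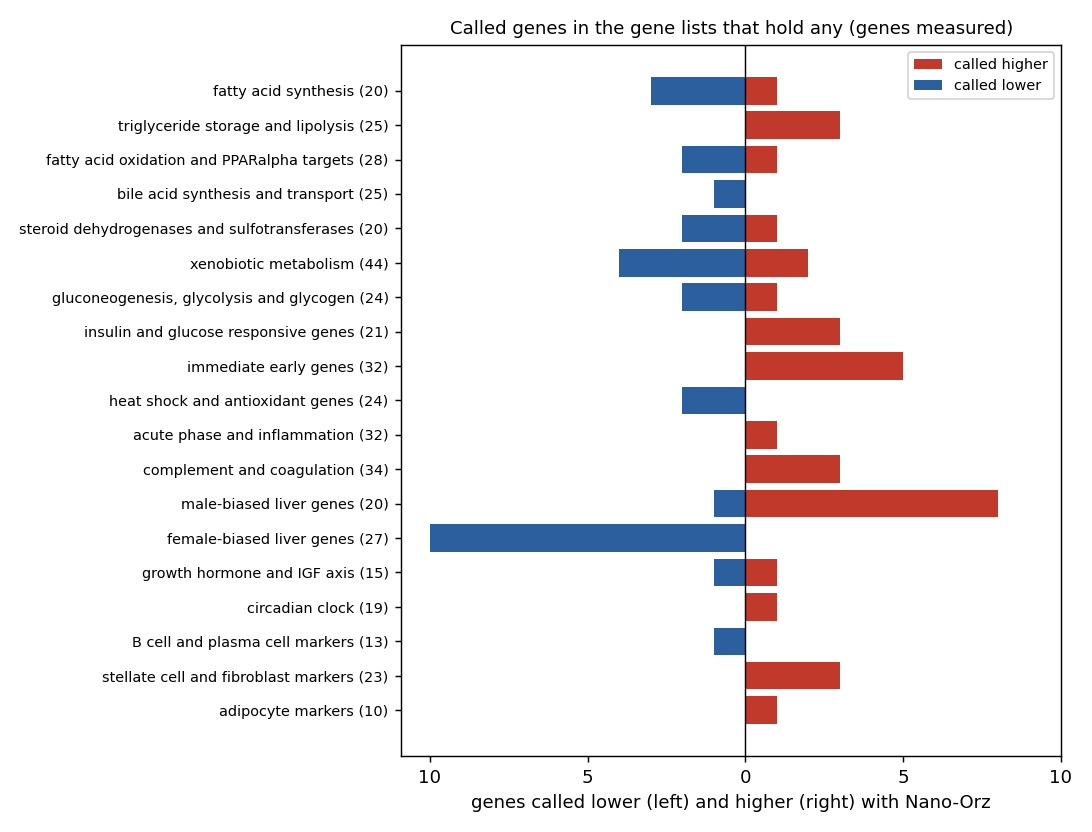
Genes called lower (bars to the left) and higher (bars to the right) with Nano-Orz in each list that holds a called gene, with the number of genes measured in brackets. The bars reach 10 of 27 female-biased genes to the left and 8 of 20 male-biased genes to the right. These lists of sex-biased genes were drawn up after values were seen, so nothing is read from their longer bars. Over all genes 0.247% were called lower and 0.302% higher.

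The lists of sex-biased liver genes were drawn up with earlier results of these data in view, so nothing is read from their counts. All mice were male. The called female-biased genes were lower with Nano-Orz, and all but 1 of the called male-biased genes higher. Of 27 measured female-biased genes 10 were called lower and none higher, with 6 positive differences and a median of -0.000400. Of 20 male-biased genes 8 were called higher and 1 lower, with 16 positive differences and a median of 8.2e-05. Over all genes 0.247% were called lower and 0.302% higher, and 48.7% had a positive difference. Nano-Veh 3 was the highest of the 6 arrays in 17 of the 27 female-biased genes (63.0%, against 21.8% of all genes) and the lowest in 14 of the 20 male-biased genes (70.0%, against 20.2%). Among the Nano-Orz arrays, Nano-Orz 2 was the highest in 11 of the 20 male-biased genes. Without Nano-Veh 3, 5 female-biased genes were called lower and 2 male-biased genes higher.

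Sult2a2, a sulfotransferase of hydroxysteroids and bile acids that female liver expresses, showed the widest difference of the called genes. It read 6.47796, 6.35466 and 6.74735 with Nano-Orz and 6.76375, 6.84217 and 8.59559 with Nano-Veh. The groups did not overlap, but Nano-Orz 3 and Nano-Veh 1 lay close together and Nano-Veh 3 far above. The difference was -0.874 (SE 0.562), and -0.276 without Nano-Veh 3. Cyp2b13, a female-specific P450, read 7.72986, 7.75675 and 7.81227 against 7.82915, 7.78674 and 7.88524, with Nano-Orz 3 above Nano-Veh 2. Its difference was -0.0674 (SE 0.0346), and -0.0417 without Nano-Veh 3. Hamp2, a second hepcidin gene that female liver expresses more, read 11.53916, 11.56192 and 11.54734 against 11.57134, 11.55828 and 11.62108. Its difference was -0.0341 (SE 0.0187), and -0.0153 without Nano-Veh 3, and of its 2 probe sets this was the 1 called, with a mean over both of -0.0170. Hamp, which encodes hepcidin, the hormone that lowers iron uptake, was not called, at -1.78e-05 (SE 1.7e-05), and was picked after its values were seen.

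Other female-biased genes called lower were Sult1e1, the estrogen sulfotransferase, at -0.00358 (SE 0.00176), whose call ended without Nano-Veh 3, and Acot3, a peroxisomal thioesterase, at -0.00269 (SE 0.00310). The difference of Acot3 was -0.000381 without Nano-Veh 3, -0.000827 without Nano-Orz 1, -0.00431 without Nano-Orz 3 and -0.00503 without Nano-Veh 2, and its call ended without Nano-Orz 1, Nano-Veh 1 or Nano-Veh 3. Among 44 genes of xenobiotic metabolism, 4 P450 genes were called lower (Cyp2b9, Cyp2b10, Cyp2b13 and Cyp2c37) and Cyp2d9 and Aox3 higher. Cyp2b10, the classic target of the receptor CAR, read 9.10064, 9.10330 and 9.10442 against 9.10534, 9.10476 and 9.09945. Here Nano-Veh 3 was the lowest array, whereas it was the highest for Cyp2b9, Cyp2b13 and Cyp2c37, and the difference of -0.000400 (SE 0.00201) ran from -0.00227 without Nano-Veh 3 to 0.000675 without Nano-Veh 1, with positive values also without Nano-Orz 1 (0.000671) and Nano-Veh 2 (0.000390). Its call ended without Nano-Veh 1 or Nano-Veh 2.

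Of the male-biased genes, Cyp2d9, a steroid hydroxylase of male mouse liver, read 10.92462, 10.93198 and 10.92171 with Nano-Orz and 10.92014, 10.92680 and 10.91003 with Nano-Veh. The groups overlapped through Nano-Veh 2, and the difference of 0.00711 (SE 0.00531) became 0.00264 without Nano-Veh 3, 0.00417 without Nano-Orz 2, where the call ended, and 0.0110 without Nano-Veh 2. C8a encodes a chain of complement component C8, part of the pore that complement drives into membranes. It read 9.69473, 9.68890 and 9.68538 against 9.68229, 9.69223 and 9.66515, a difference of 0.00978 (SE 0.00772) that became 0.00241 without Nano-Veh 3 and 0.0159 without Nano-Veh 2, with the call ending without Nano-Orz 1. C8b and C6, further parts of that pore, were the other 2 genes called higher among 34 of complement and coagulation, by 0.00300 (SE 0.00234) and 0.000949 (SE 0.000646). Without Nano-Veh 3 these were 0.000861 and 0.000332, and without Nano-Veh 2 0.00509 and 0.00148. The calls of C6 and C8b ended without any 1 Nano-Orz array or Nano-Veh 3, and that of C8b also without Nano-Veh 1. Mup3, a major urinary protein, rose by 0.00307 (SE 0.00251), with 10.19307 in Nano-Veh 3 against 10.20021 to 10.20201 in the other 5 arrays. Its difference was 0.000408 without Nano-Veh 3 and 0.00483 without Nano-Veh 2, and its call ended without any 1 Nano-Orz array or Nano-Veh 3. Bcl6, a repressor that growth hormone holds down, was the 1 male-biased gene called lower. It read 7.39516, 7.41457 and 7.39551 against 7.40294, 7.40603 and 7.39778, so its treated arrays lay on both sides of the vehicle arrays and the difference of -0.000501 (SE 0.00632) changed sign without Nano-Orz 1, Nano-Orz 3 or Nano-Veh 2. It ran from -0.00691 without Nano-Orz 2 to 0.00279 without Nano-Orz 1, was -0.00273 without Nano-Veh 3, and the call ended without any 1 array other than Nano-Orz 2.

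Some genes called whichever array was left out belong to none of these groups. Gpcpd1, which splits glycerophosphocholine, read 9.44654, 9.44796 and 9.44756 with Nano-Orz and 9.44529, 9.44386 and 9.44005 with Nano-Veh, a difference of 0.00429 (SE 0.00150) and 0.00278 without Nano-Veh 3. Of its 4 probe sets this was the 1 called, and the mean over all 4 was 0.00121. Hhex, a homeobox factor of liver development, read 8.57829, 8.57831 and 8.57871 against 8.57791, 8.57758 and 8.57603, a difference of 0.00126 (SE 0.000550) and 0.000688 without Nano-Veh 3. Fbf1, a protein of the centriole at the base of cilia, read 7.88631, 7.88600 and 7.88600 against 7.88517, 7.88495 and 7.88444, a difference of 0.00125 (SE 0.000221). In these 3 genes all treated arrays were above all vehicle arrays. Among the 12 genes of largest difference without overlap in each direction, Slc25a30, a mitochondrial carrier (0.000994, SE 0.000338), Ifrd1, a transcriptional coregulator (0.000915, SE 0.000279), and Slc20a1, a phosphate transporter (0.000652, SE 0.000147), were also called higher. Their calls ended without Nano-Orz 1 or Nano-Orz 3, without Nano-Orz 1 or Nano-Orz 2, and without any 1 Nano-Orz array, in that order. Lower by this rule were also the chaperone Hsph1 (-0.000594, SE 0.000297), the liver transcription factor Foxa3 (-0.000512, SE 0.000230), the corticosteroid-binding globulin Serpina6 (-0.000491, SE 0.000262), the sphingosine 1-phosphate receptor S1pr1 (-0.000310, SE 0.000106), choline kinase Chka (-0.000297, SE 0.000102) and the retinoid dehydrogenase relative Rdh16f2 (-0.000170, SE 4.96e-05), with Tmie, Ypel2 and the small nucleolar RNA Snord104. The calls of the 6 genes given with values ended without any 1 Nano-Veh array. After quantile normalization Rdh16f2 was at 0, S1pr1 at 3.58e-06 and Chka at -0.000139. Quantile normalization keeps only the rank of a probe set within its array, so an unchanged rank comes out at exactly 0. Serpina6 was at -0.000218 without Nano-Veh 3, Foxa3 at -0.000306 and Hsph1 at -0.000274 without Nano-Orz 3.

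The next genes were picked after their values were seen, from no fixed list, and stand only for themselves. Id2, an inhibitor of helix-loop-helix factors, was lower at all 3 of its probe sets, at -0.000385 (SE 0.000201), -0.000777 (SE 0.000601) and -0.00638 (SE 0.00378). Its brightest probe set read 9.77804, 9.77776 and 9.77823 with Nano-Orz and 9.77816, 9.77831 and 9.77872 with Nano-Veh, so that Nano-Orz 3 lay above Nano-Veh 1, and the difference was -0.000223 without Nano-Veh 3. Id1 was lower, at -0.00176 (SE 0.00174), and so was Smad7, an inhibitor of TGF-β family signals, at -0.000655 (SE 0.000409), while Id3 at -0.000274 (SE 0.000405) was not called. Without Nano-Veh 3 the differences of Id1, Smad7 and Id3 were -0.000480, -0.000288 and 9.7e-05, and without Nano-Orz 2 those of Id1 and Smad7 were -0.000553 and -0.000431. That of Id1 was -0.00282 without Nano-Orz 3 and -0.00277 without Nano-Veh 2. The calls of Id1, Id2 and Smad7 ended without Nano-Orz 2, Nano-Veh 1 or Nano-Veh 3, and that of Id2 also without Nano-Veh 2.

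Of the marker genes of other cells, Ighm, 3 matrix genes and, as given above, Cidec were called. None of 20 Kupffer cell and macrophage, 10 neutrophil, 13 T and NK cell, 18 endothelium, 10 cholangiocyte, 14 exocrine pancreas, 6 red blood cell, 16 proliferation and 9 hepatocyte genes was called by rank product. Of 13 B cell and plasma cell genes, Ighm, the heavy chain of IgM, was called lower, at 8.29203, 8.30762 and 8.30116 with Nano-Orz and 8.31670, 8.31011 and 8.31448 with Nano-Veh. No treated array reached the vehicle arrays, and the difference was -0.0135 (SE 0.00454), or -0.0131 without Nano-Veh 3. Of the 11 probe sets for Ighm, 2 were called lower, and the mean over all 11 was -0.00186. The summed signal of the 13 genes was 91.5909 to 91.6064 with Nano-Orz and 91.6090 to 91.6154 with Nano-Veh, and 7 of the 13 had a positive difference.

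The matrix genes Col1a2, Col3a1 and Lum were called higher among 23 stellate cell and fibroblast genes, but with overlap. Col3a1, a fibrillar collagen, read 9.43317, 9.43103 and 9.43075 with Nano-Orz and 9.42918, 9.43593 and 9.42808 with Nano-Veh, so the highest array was a vehicle array. Nano-Veh 2 was the highest of the 6 arrays in 14 of the 23 genes, and the summed signal of the list was 180.2628 to 180.2717 with Nano-Orz and 180.2561 to 180.2793 with Nano-Veh. The difference of Col3a1 was 0.000588 (SE 0.00237) and ran from -0.000904 without Nano-Veh 3 to 0.00302 without Nano-Veh 2. Without Nano-Veh 2 the list held 7 higher calls, and without any other 1 array it held none by rank product.

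None of the 12 genes known from RT-qPCR in these livers that have a probe set of their own was called on it by rank product. By RT-qPCR the study reports lower levels with Nano-Orz for genes of endoplasmic reticulum stress, gluconeogenesis, fatty acid synthesis and cholesterol synthesis. RT-qPCR covered more mice, while the arrays hold 3 picked mice of each group on the compressed DFW scale, so the measures are unlike. On the arrays the differences of Pck1 and G6pc were positive. Probe sets were matched by gene symbol, so the spliced form of Xbp1 and the SREBP-1c form of Srebf1, which RT-qPCR addressed, cannot be told from other transcripts of these genes. Srebf1, which drives fatty acid synthesis, differed by -0.000150 (SE 9.06e-05, pfp 0.102), Fasn, fatty acid synthase, by -0.000103 (SE 8.11e-05, pfp 0.2) and Acaca, acetyl-CoA carboxylase, by -5.14e-05 (SE 3.7e-05, pfp 0.425). Pck1, a rate-setting enzyme of gluconeogenesis, differed by 0.000376 (SE 0.000233, pfp 0.0873) at its brightest probe set and was called higher at another of its 3 probe sets, which read 9.06846, 9.07541 and 9.08152 against 9.07701, 9.06904 and 9.05065 with overlap. G6pc, glucose-6-phosphatase, differed by 0.000189 (SE 0.000108, pfp 0.238). Without Nano-Veh 3 the differences of Fasn, Acaca, Pck1 and G6pc were -3.31e-05, -1.53e-05, 0.000174 and 9.62e-05. Without Nano-Orz 1 that of Srebf1 was -5.59e-05, and without Nano-Orz 2 that of Fasn was -5.83e-05. That of Pck1 was 0.000598 without Nano-Veh 1 and that of G6pc 0.000298 without Nano-Veh 2, and each was then called higher, as Srebf1 was called lower at -0.000206 without Nano-Orz 2. Xbp1, a transcription factor of the endoplasmic reticulum stress response, was lower in all 3 treated arrays than in any vehicle array, by -9.41e-06 (SE 2.1e-06, pfp 0.832). Separation of the groups to either side held for 9.11% of all genes, and the mean over the 4 probe sets for Xbp1 was -6.32e-08. None of 26 genes of the endoplasmic reticulum stress response was called by rank product, with 13 of them positive. Ppara, Ppargc1a, Srebf2, Hmgcs1, Ddit3 and Dnajb9 differed by less than 2e-05 in either direction.

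Nano-Orz was set beside regular γ-oryzanol given in methylcellulose, whose 3 treated and 3 vehicle liver arrays are separate mice. Levels of the 2 experiments were not compared, since the same gene sits at different levels in them (Jun at 7.84597 to 7.84737 in the regular arrays). In all, 23 genes were called in both experiments, 8 the same way and 15 in opposite ways. Lower in both were Bcl6, Id1, Pnpla3, Scd2 and Sprr1a, and higher in both were Gm6958, Phlda1 and Slc15a2. Called higher with Nano-Orz and lower with regular γ-oryzanol were Coq10b, Cyp4a12a, Hhex, Hsd17b6, Jun, Plk3, Ppp1r3g and Slc20a1. Called lower with Nano-Orz and higher with regular γ-oryzanol were Hao2, Ighm, Malat1, Mt2, Neat1, Sult1e1 and Sult2a2. Whether so many shared calls are more than probe sets of wide spread would give was not tested. Cidea was called with Nano-Orz alone, at 0.0250 against -1.06e-05 with regular γ-oryzanol, and Txnip likewise, at 0.00140 against -5.95e-07. The difference between the preparations was tested by limma over the 12 liver arrays and called 0 probe sets, with 2479 at an unadjusted p under 0.05 and a lowest adjusted p of 0.277. After quantile normalization the same contrast called 280 probe sets, with a lowest adjusted p of 7.62e-25, and the cause of this gap was not tested. For Cidea the adjusted p was 0.934 and for Txnip 0.751 (limma). Among called genes, Fbf1 had the lowest unadjusted p, with effects that differed by 0.00133 (SE 0.000243, unadjusted p = 0.000405, limma adjusted p = 0.456).

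**Figure D4:**
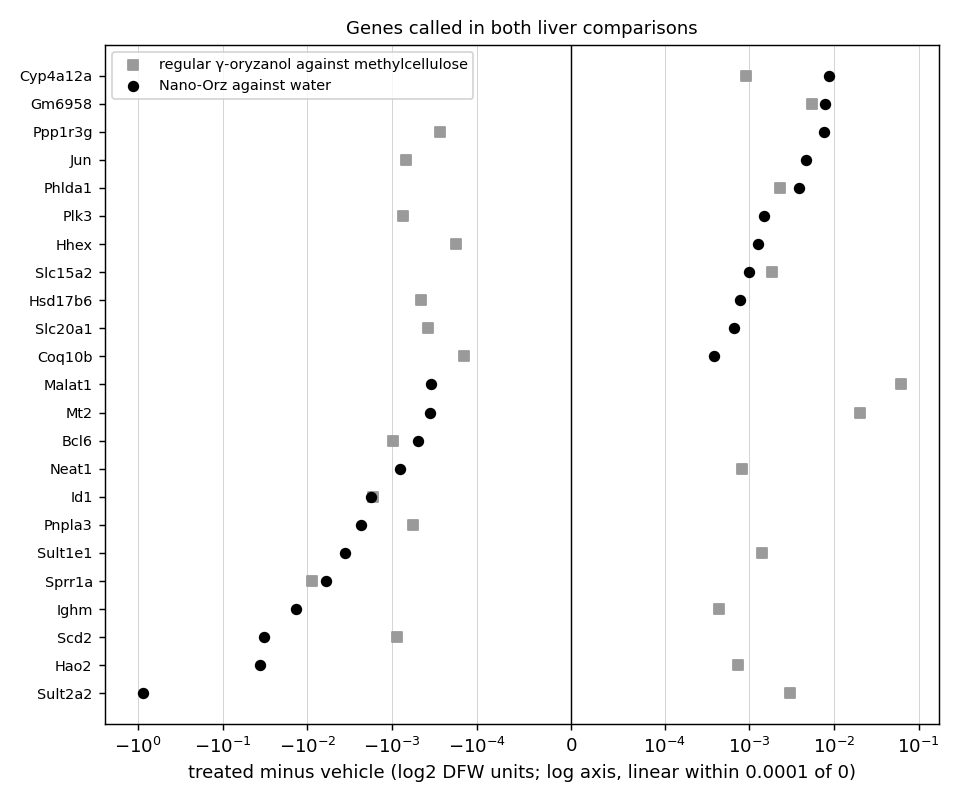
Treated minus vehicle difference in log2 DFW units (horizontal, log axis that is linear near 0) of the 23 genes called in both liver experiments, for Nano-Orz against water (black circles) and regular γ-oryzanol against methylcellulose (grey squares). The 2 marks of a gene lie on the same side of 0 for genes called the same way and, except for Cyp4a12a, on opposite sides for the 15 genes called in opposite ways.

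The number of calls depended on which group lost an array. Without Nano-Orz 1, 2 or 3 the probe sets called higher numbered 24, 28 and 28 and those called lower 187, 113 and 75. Without Nano-Veh 1, 2 or 3 they numbered 183, 212 and 120 higher and 18, 40 and 10 lower. Higher calls thus fell most without a Nano-Orz array and lower calls most without a Nano-Veh array. The part of unequal group sizes in this was not tested. A call could end although the difference grew, as for Igfbp2, at 0.000744 without Nano-Orz 3 against 0.000620 with all arrays. An ended call therefore does not by itself show that a difference leaned on the array left out.

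**Figure D5:**
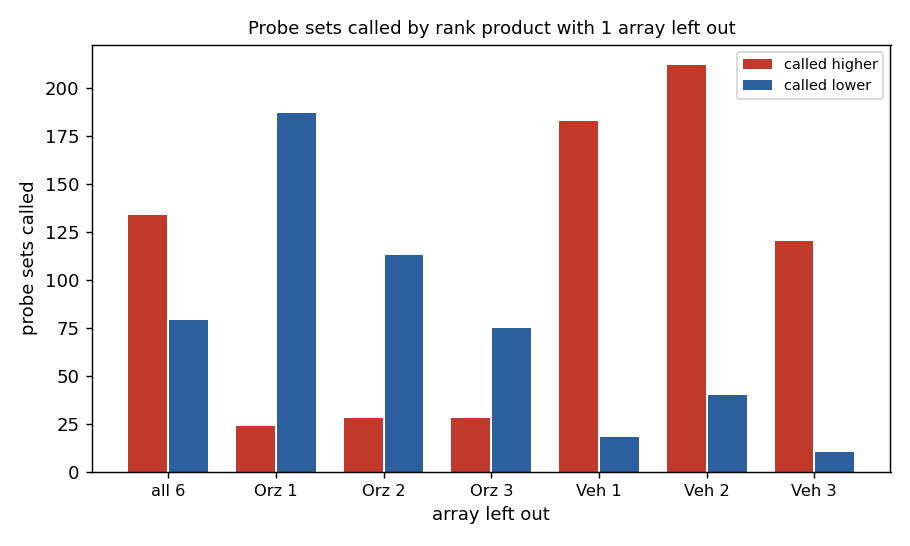
Probe sets called higher (red) and lower (blue) by rank product with all 6 arrays and with 1 array left out (horizontal axis). Higher calls fall from 134 to 28 or fewer without any 1 Nano-Orz array. Lower calls fall from 79 without any 1 Nano-Veh array, and to 10 without Nano-Veh 3.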

How the data were processed

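Liver RNA of male ob/ob mice was hybridised to Affymetrix mouse arrays, 3 for Nano-Orz and 3 for Nano-Veh, and replicates are separate mice. The authors quantified the arrays by DFW and deposited log2 signals of 45101 probe sets, which were used as deposited without a filter. DFW draws arrays together, so differences rank probe sets and are not fold changes. No background or detection values were used here, and the number of arrays limits the precision. The deposit holds 4 further tables, whose 24 columns are headed by animal codes; no label ties these codes to a sample, so the columns were not used.

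Probe sets were named through the platform annotation, with symbols updated through gene identifiers to RefSeq: 34958 carry 1 gene symbol (34754 of them matched RefSeq), 932 several and 9211 none. Of all probe sets 64 are controls. A gene is represented by its probe set of highest mean over the 6 arrays among those with 1 symbol.

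As in the study's methods, calls were made by rank product, here over all 9 pairs with 100 permutations of the values within arrays, at pfp under 0.05. The study does not state the pairs or permutations. Limma 3.58.1 in R 4.3.3 gave standard errors, p-values adjusted by Benjamini-Hochberg and the contrast of the 2 preparations over 12 liver arrays. Both tests were run on simulated data with known changes, which does not give the share of false calls in the real data. Rank products and figures were made in Python 3.11.15 with pandas 2.3.3, scipy 1.17.1, matplotlib 3.10.9 and numpy 2.4.6.

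Named genes followed a rule: in each direction the 12 largest differences among called genes without overlap, up to 4 called genes for each list and direction, the genes measured by RT-qPCR in liver, those called in both liver experiments and Phlda1. Other genes are said to be chosen after their values were seen. The comparison, the gene lists and the named genes were chosen with earlier results of these data known, and the lists of sex-biased genes had been drawn up after values were seen. Alternatives were limma, the methods' Student test, quantile normalization, bright probe sets only, differences scaled by spread, same-numbered pairs, the mean over all probe sets of a gene and leaving out each array. Whether the replicate numbers pair the arrays was checked by the correlation of deviations from group means.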

Additional observations from a re-analysis of the deposited data

Results flagged for a closer look

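Jun and Igfbp2 had mean differences of opposite sign with the 2 preparations, with no overlap of treated and vehicle arrays in either experiment. In the Nano-Orz comparison alone, 9.11% of all genes showed no overlap. The share of genes that meet this in both experiments with opposite signs was not counted, so the pair is not shown to be unusual. Jun differed by 0.00468 with Nano-Orz and by -0.000685 with regular γ-oryzanol, where treated arrays read 7.84597, 7.84663 and 7.84653 and vehicle arrays 7.84716, 7.84737 and 7.84666. Igfbp2 differed by 0.000620 with Nano-Orz and by -8.18e-05 with regular γ-oryzanol, at 7.47467, 7.47468 and 7.47462 against 7.47476, 7.47470 and 7.47475, and was not called with regular γ-oryzanol (pfp 0.0521 by rank product). The difference between the preparations gave an unadjusted p of 0.00558 for Jun and 0.0184 for Igfbp2, and limma adjusted p of 0.735 and 0.817, so neither passed the correction as deposited. The same contrast called 280 probe sets after quantile normalization. Groups of 3 arrays are too small for the test of outlying samples used here.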

How the results depend on the processing

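Against 134 probe sets called higher and 79 lower, quantile normalization gave 62 and 41 (53 and 26 shared), bright probe sets alone 76 and 36, and leaving out 1 array 24 to 212 and 10 to 187. Limma gave 0 and 0 after adjustment and 1959 before it. The methods' Student test gave 983 and 999 unadjusted and 0 and 0 after Benjamini-Hochberg. Differences scaled by spread gave 140 and 96, of which 36 and 7 were shared. The contrast of the preparations rose from 0 to 280 after quantile normalization. The cause was not tested.

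With the replicate number as a block, same-numbered pairs gave 147 higher and 95 lower calls (109 and 62 shared), limma gave 0 and 0, and the contrast of the preparations 0 with 3129 at unadjusted p under 0.05. Same-numbered arrays correlated at -0.0491, 0.0998 and -0.210 in their deviations, and only Nano-Orz 2 correlated best with its own number, so the numbers were not taken to pair the arrays.

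Of 65 called genes named by the rule, 15 kept the call without any 1 array, 59 with same-numbered pairs and 32 after quantile normalization. Without 1 array the difference ran from -0.00691 to 0.00279 for Bcl6, -0.000258 to 0.00276 for Col1a2, -0.000904 to 0.00302 for Col3a1, -0.00227 to 0.000675 for Cyp2b10, -0.00227 to 0.00805 for Egr1, -0.000114 to 0.00199 for Lum, -0.00182 to 0.000588 for Mt2 and -0.0119 to 0.00499 for Sprr1a, and that of S1pr1 was 3.58e-06 after quantile normalization. Under that setting the difference of 19 of the 65 moved by more than 1.5 times, among them Rdh16f2, Dbp and Cyp2c37 (each 0), Cidec (0.000111, pfp 0.984), Txnip (0.000584) and Chka (-0.000139). A probe set whose rank is the same in all arrays comes out at exactly 0 there.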
